A study of Homo sapiens with 26 samples.

Results

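The levels of 9 lysosomal transcripts, LIPA, CTSB, CTSD, CTSL, HEXA, LAMP1, LAMP2, NPC1 and NPC2, were measured by poly(A) RNA sequencing in HCT116 cells that express variants of the RNA-binding protein IGF2BP1. The genes were chosen by name as enzymes and membrane or sterol-export components of the lysosome, with earlier results of these data known. They are 9 of the 63086 genes counted and of the 20044 protein-coding genes among them. All 9 passed the filter on low counts. LIPA was one of the transcripts that the study itself picked from these samples, so its changes are not independent evidence.

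HCT116 is a human colorectal carcinoma line. All 4 engineered populations carried Tet-OsTIR1-PURO, were knocked out for the paralogs IGF2BP2 and IGF2BP3, and expressed mCherry-IGF2BP1 as wild type (WT), S181E, Y396E or RQ. S181E and Y396E place a glutamate at a phosphorylation site of a disordered linker, and RQ exchanges arginines of the first linker for glutamine. Cells were given 500 µM sodium arsenite, an oxidative stressor, for 2 h, or PBS as control, which made 8 groups of 3 libraries. Parental HCT116 cells, labelled without any of these modifications, gave 1 control and 1 arsenite library, which are shown without a test. Each construct was studied in 1 population sorted through a narrow mCherry gate after lentiviral transduction, so construct and population cannot be told apart.

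Lysosomes break down macromolecules delivered by endocytosis and autophagy in an acidic lumen. Soluble hydrolases reach them through mannose 6-phosphate receptors, a heavily glycosylated membrane protects the cytosol, and cholesterol freed from lipoprotein esters leaves through the paired action of NPC2 and NPC1. Many lysosomal genes carry an E-box element near their start that is bound by the transcription factors TFEB and TFE3, which are regulated through mTORC1 on the lysosomal surface.

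To show how far the 9 genes share this element, their RefSeq promoter windows (GRCh38.p14, 250 bases before to 50 bases after a start) were searched for CACGTG, which reads the same on both strands, and for GTCACGTG on both strands, of which CACGTG is a part. Windows were given for 6 of the 9 genes, 9 windows in all. CACGTG occurred in 2 of these 9, those of CTSD and LAMP1, against 7.26% of all 35116 promoter windows. GTCACGTG occurred in the same windows, against 2.4% of all. The LAMP1 window held 6 copies and the CTSD window 1 copy, 47 bases before the start. Neither the 3 windows of LIPA nor those of CTSL, NPC1 and NPC2 held it. The windows of CTSD (chr11:1763878-1764177, minus strand), LAMP1 (chr13:113296989-113297288, plus strand) and 1 of LIPA (chr10:89251726-89252025, minus strand) are printed to set the promoters with and without the element side by side, with CACGTG in capitals.
CTSD: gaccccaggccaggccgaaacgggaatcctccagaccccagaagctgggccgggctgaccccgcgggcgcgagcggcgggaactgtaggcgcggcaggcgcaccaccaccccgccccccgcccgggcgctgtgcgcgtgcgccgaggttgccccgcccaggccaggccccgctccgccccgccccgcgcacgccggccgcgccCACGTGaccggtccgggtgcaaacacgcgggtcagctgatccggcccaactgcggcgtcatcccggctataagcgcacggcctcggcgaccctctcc
LAMP1: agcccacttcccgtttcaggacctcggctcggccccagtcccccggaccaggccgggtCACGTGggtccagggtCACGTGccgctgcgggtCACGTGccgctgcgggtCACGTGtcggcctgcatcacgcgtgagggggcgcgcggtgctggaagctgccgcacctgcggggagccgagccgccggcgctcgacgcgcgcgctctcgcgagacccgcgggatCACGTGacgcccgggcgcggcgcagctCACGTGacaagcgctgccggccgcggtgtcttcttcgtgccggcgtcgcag
LIPA: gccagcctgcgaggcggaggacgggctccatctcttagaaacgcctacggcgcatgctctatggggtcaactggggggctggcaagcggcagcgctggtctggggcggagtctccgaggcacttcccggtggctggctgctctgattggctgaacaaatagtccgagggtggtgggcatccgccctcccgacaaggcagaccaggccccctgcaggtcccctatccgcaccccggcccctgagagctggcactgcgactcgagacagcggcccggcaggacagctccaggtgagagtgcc
A match describes these letters only.

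The libraries held 22508145 to 50834401 counts, and the members had between 406 and 16900 counts in a library. Of the colorectal epithelial markers, 6 of 7 exceeded 1 CPM in every library, all but VIL1, whereas the summed level was at most 1.6 CPM for 6 macrophage markers and 0.926 CPM for 4 endothelial ones. The 6 fibroblast markers summed to 6.55 to 11.9 CPM, of which 1 gene, COL1A1, exceeded 1 CPM throughout. Y396E arsenite replicate 3 stood apart, with counts in 13897 genes against at least 20850 in the others, and values whose call it changed are given with and without it. Protein-coding mitochondrial transcripts took 15.7% to 21.2% of the protein-coding counts in WT and RQ control libraries and 9.33% to 14% in those of S181E and Y396E. IGF2BP1 itself had 10.6 to 14.7 CPM in WT control libraries, 17.4 to 20.4 in S181E, 15.3 to 17.6 in Y396E and 12.16 to 15.58 in RQ. In arsenite it had 27.87 to 30.02 CPM in WT, 42.7 to 44.05 in S181E, 42.33 to 44.67 in Y396E and 46.23 to 47.95 in RQ. The comparisons of S181E and Y396E with WT thus include populations with unequal IGF2BP1 levels, in control as well as in arsenite. RQ overlapped WT in control and lay above it in arsenite. The differences between arsenite responses include these unequal groups. The part of the mitochondrial share or of the IGF2BP1 level in the results below was not tested. The RNA came from clarified lysate, so RNA lost with the pellet was not measured, and fewer molecules per cell cannot be told apart from fewer molecules in the lysate.

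Per length, the 9 transcripts spanned a wide range of abundance. In WT control cells LAMP1, a major glycoprotein of the lysosomal membrane, had the highest level (102.2 ± 12.5 RPKM, SD, n = 3), followed by NPC2 at 63.2 ± 7.36, CTSB at 42.1 ± 3.72 and CTSD at 27.6 ± 2.77. These 4 levels were separated by more than their spread. LIPA at 13.3 ± 1.63 RPKM and CTSL at 11.6 ± 0.663 lay within about 1 SD of each other, as did LAMP2 at 5.41 ± 0.571 and NPC1 at 4.87 ± 0.504. HEXA was lowest at 3.72 ± 0.508. RPKM here divides the TMM-scaled CPM by the length of all exons of the gene, and in CTSD 46% of the exon bases are shared on the same strand with another annotated gene, ENSG00000250644, and in HEXA 9.6% with ENSG00000260729, so that reads over those bases may not have been assigned.

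**Figure D1:**
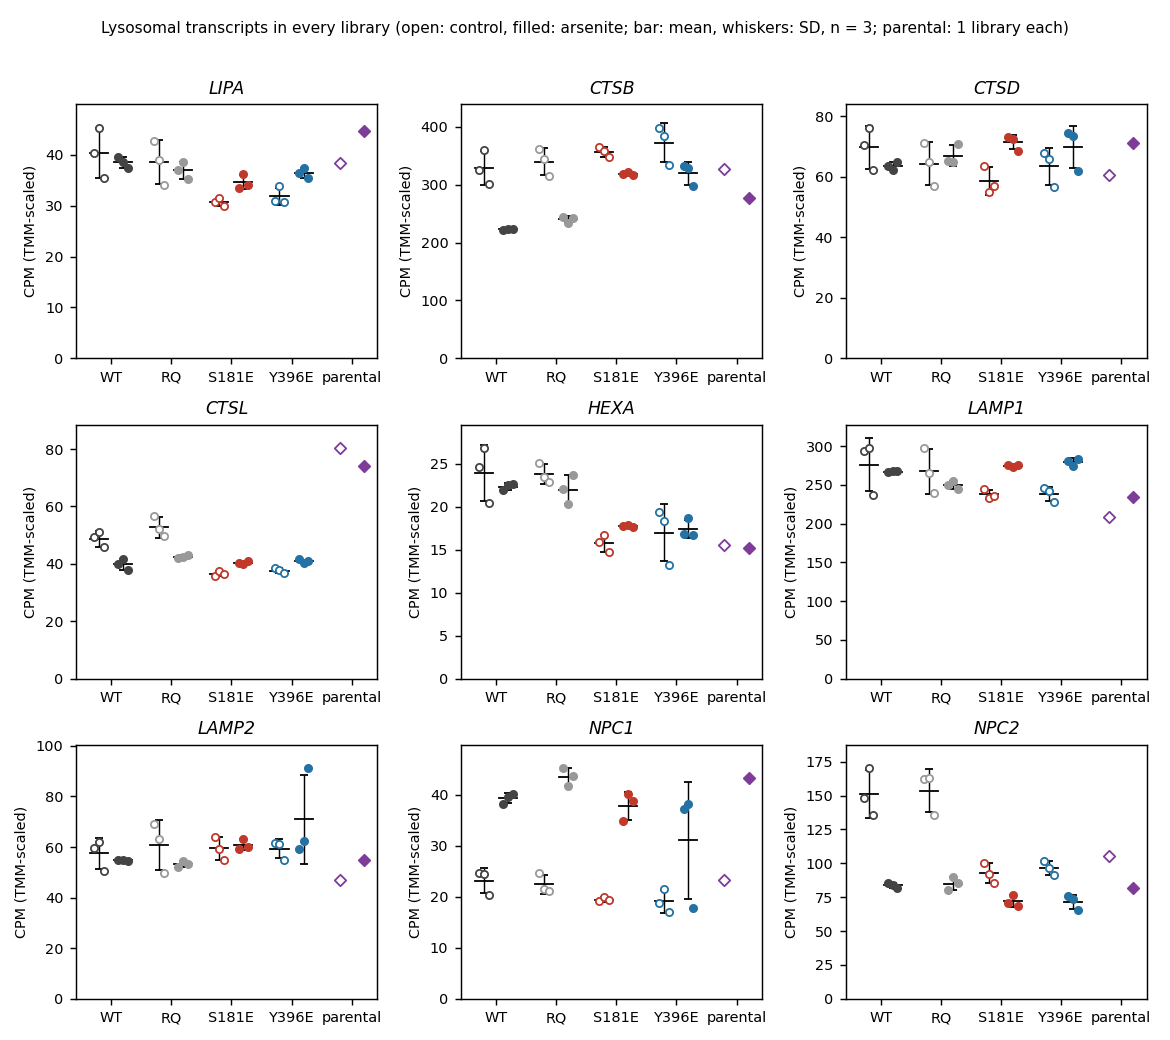
TMM-scaled CPM of the 9 lysosomal genes in every library, by population, with control libraries as open and arsenite libraries as filled points, bars at the mean and whiskers of 1 SD (n = 3), and single parental libraries as diamonds. NPC2 control libraries of S181E and Y396E (85.4 to 101.9 CPM) lie below all WT and RQ control libraries (135.6 to 170.4 CPM), and LAMP2 and NPC1 in Y396E arsenite each have 1 library far from the other 2.

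The first question was how the lysosomal transcripts differed between cells with a mutant and cells with WT IGF2BP1 in the absence of stress. In S181E control cells 4 of the 9 were lower than in WT and none was higher, and the same 4 genes, LIPA, CTSL, HEXA and NPC2, were lower in Y396E. A gene was called when its edgeR quasi-likelihood p, Benjamini-Hochberg adjusted over 9099 genes, was under 0.05 and its fold change above 1.2. Of all tested genes 15.4% were called lower and 15.7% higher in S181E, and 14.2% and 14.5% in Y396E. The median log2 change of the 9 genes was -0.25 in S181E and -0.28 in Y396E, beside 0.02 and 0.01 for all genes tested. Both comparisons, and the arsenite responses below, share the 3 WT control libraries, of which replicate 2 had the highest level of 8 of the 9 genes and replicate 3 the lowest of all 9.

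LIPA, which encodes lysosomal acid lipase, the enzyme that hydrolyses cholesteryl esters and triglycerides in the lysosome, had 40.4, 45.4 and 35.5 CPM in the WT control libraries. It had 30.8, 31.6 and 29.97 CPM in S181E and 31.0, 33.8 and 30.8 CPM in Y396E. All mutant libraries thus lay below the lowest WT library. The log2 change was -0.39 ± 0.08 (SE) in S181E (adjusted p = 0.000257) and -0.34 ± 0.08 in Y396E (adjusted p = 0.00118). Without WT control replicate 2 the Y396E change was -0.25 and no longer passed the fold threshold.

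CTSL, a cysteine protease, fell in the same populations. Its levels were 49.4, 51.1 and 45.7 CPM in WT, 35.7, 37.5 and 36.6 in S181E, and 38.4, 37.9 and 36.6 in Y396E, without overlap. The log2 changes were -0.41 ± 0.06 (adjusted p = 2.51e-06) and -0.37 ± 0.06 (adjusted p = 1.25e-05). HEXA, the alpha subunit of beta-hexosaminidase A, which degrades GM2 ganglioside, had 24.6, 26.8 and 20.4 CPM in WT and 15.9, 16.6 and 14.7 in S181E. In Y396E it had 19.4, 18.3 and 13.2 CPM, so that all mutant libraries lay below the lowest WT library. HEXA changed by -0.61 ± 0.11 (adjusted p = 8.85e-05) and -0.50 ± 0.11 (adjusted p = 0.000767).

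NPC2, the soluble lumenal protein that passes cholesterol to NPC1, showed the largest difference of the 9. It had 148.0, 170.4 and 135.6 CPM in WT against 100.3, 92.4 and 85.4 in S181E and 101.9, 96.9 and 91.2 in Y396E. The gap between the groups exceeded the range within the mutants. The log2 changes were -0.71 ± 0.08 (adjusted p = 1.66e-07) and -0.65 ± 0.08 (adjusted p = 7.3e-07). NPC1, its membrane-bound partner, had 24.6, 24.5 and 20.4 CPM in WT, 19.1, 20.0 and 19.3 in S181E and 18.8, 21.5 and 17.0 in Y396E. Its differences of -0.25 ± 0.17 and -0.28 ± 0.17 were not called (adjusted p = 0.231 and 0.187). Without Y396E arsenite replicate 3, which widens the spread estimated for this gene, the Y396E difference was -0.29 and was called (adjusted p = 0.00371).

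The other 4 genes were not called in either mutant. CTSB, a cysteine protease, was at 329 ± 29.1 CPM in WT, 357.2 ± 8.80 in S181E and 372.6 ± 34.0 in Y396E (SD, n = 3), a change of 0.12 ± 0.06 and 0.18 ± 0.06. It was the only one of the 4 with an estimate above 0.1, and the 322 tested genes of its chromosome, chromosome 8, had medians of -0.42 and -0.41 in the same comparisons, against 0.03 and 0.02 elsewhere. These medians cover the whole chromosome and need not hold near CTSB. Of the genes in the lists below, the nearest to it, ASAH1 and ATP6V1B2, had -0.13 and 0.41 in S181E. Further along the chromosome, LAPTM4B, ATP6V1H and ATP6V1C1 had -0.89, -0.63 and -0.43. CTSD, the main lysosomal aspartic protease, had estimates of -0.25 ± 0.09 (adjusted p = 0.0195) and -0.14 ± 0.09. LAMP1 had -0.21 ± 0.07 in both (adjusted p = 0.0101 and 0.0117), under the fold threshold, with WT control replicate 3, at 237.2 CPM, inside the range of both mutants. LAMP2, its paralog in the same membrane, had 0.05 ± 0.12 and 0.04 ± 0.12.

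RQ control cells were compared with WT in the same way, and none of the 9 genes was called, where 1% of all genes were called higher and 0.429% lower. The 9 log2 changes lay between -0.11 and 0.12, and their 95% intervals between -0.40 and 0.33, the widest being that of NPC1. The smallest unadjusted p was 0.052, for CTSL, and no member had one under 0.05. Between Y396E and S181E none was called either, with changes from -0.03 to 0.12, intervals from -0.40 to 0.34, and 0% of all genes called in either direction at 289 genes with an unadjusted p under 0.05. DESeq2 called none of the 9 in either comparison, and 1 of all genes between Y396E and S181E.

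**Figure D2:**
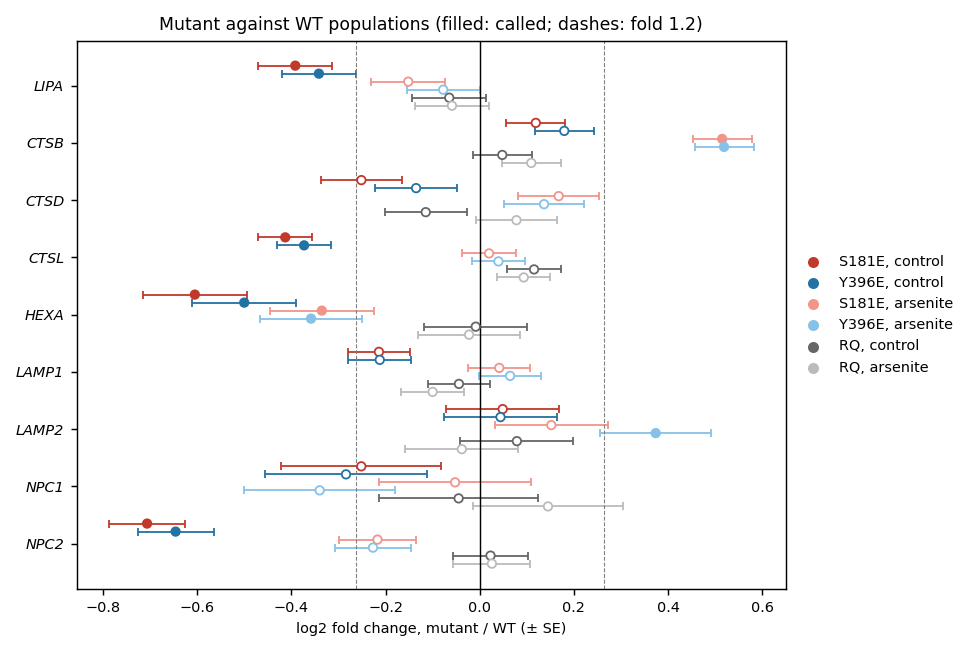
Log2 fold change of each gene in mutant against WT populations (x axis, ± SE from the edgeR fit) in control cells and in arsenite, with called genes filled and the 1.2-fold threshold dashed. In control cells LIPA, CTSL, HEXA and NPC2 lie left of the threshold in S181E and Y396E, while in arsenite CTSB lies right of it at 0.52 in both and RQ has no called gene.

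After arsenite the called differences were in part other ones, and only HEXA was called lower in both conditions. In S181E 1 gene was higher than in WT and 1 lower, CTSB and HEXA, where 5.32% of all genes were called higher and 8.42% lower. In Y396E CTSB and LAMP2 were higher and HEXA lower, where 9.77% and 11.9% were called. CTSB had 221.4, 223.8 and 223.6 CPM in WT arsenite libraries. In S181E it had 317.9, 321.8 and 316.3 CPM and in Y396E 331.9, 329.3 and 297.3. The groups were far apart relative to their spread, with log2 changes of 0.52 ± 0.06 in both (adjusted p = 8.52e-07 and 6.04e-07).

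HEXA was lower in the mutants in arsenite too, at 21.9, 22.5 and 22.6 CPM in WT against 17.7, 17.9 and 17.6 in S181E and 16.8, 18.7 and 16.7 in Y396E. The changes were -0.34 ± 0.11 (adjusted p = 0.0282) and -0.36 ± 0.11 (adjusted p = 0.0125). The S181E call was lost when any 1 of the 6 libraries compared was left out, with adjusted p from 0.0532 to 0.0769 at changes from -0.35 to -0.33. LAMP2 in Y396E rested on replicate 3, at 91.3 CPM against 59.1 and 62.4 in replicates 1 and 2 and 54.6 to 55.0 in WT. Its change of 0.37 ± 0.12 (adjusted p = 0.0162) was 0.15 without that library (adjusted p = 0.181).

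The 3 other genes that were lower in control cells had smaller estimates in arsenite. LIPA had 39.5, 38.6 and 37.4 CPM in WT, 33.5, 36.2 and 34.1 in S181E and 36.5, 37.5 and 35.4 in Y396E. The S181E libraries all lay below those of WT and the Y396E libraries overlapped them, and the changes of -0.15 ± 0.08 and -0.08 ± 0.08 were not called (adjusted p = 0.177 and 0.453). CTSL had 0.02 ± 0.06 and 0.04 ± 0.06. NPC2 had -0.22 ± 0.08 in S181E (adjusted p = 0.0583) and -0.23 ± 0.08 in Y396E (adjusted p = 0.0327), the second of which was under the fold threshold. In RQ arsenite cells no member was called by edgeR or DESeq2 and none had an unadjusted p under 0.05, where 1.36% of all genes were called higher and 0.154% lower, and the 9 changes ran from -0.10 to 0.15 with intervals from -0.29 to 0.48. Y396E against S181E in arsenite gave none of the 9 and 0% of all genes, where 1375 genes had an unadjusted p under 0.05 and DESeq2 called 6 higher and 3 lower, none of them a member, with changes from -0.29 for NPC1 to 0.22 for LAMP2 and intervals from -0.63 to 0.47. Both extremes rested on Y396E arsenite replicate 3, and without it they were -0.0078 and -0.00087.

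The second question was how each population responded to arsenite. In WT cells NPC1 rose and NPC2, CTSB and CTSL fell, and the same 4 genes moved in the same directions in RQ. In S181E NPC1 and CTSD rose and NPC2 fell, and in Y396E NPC1 rose and NPC2 fell. Arsenite changed most of the tested genes, and these counts of 2 to 4 of 9 stand beside the shares of all genes: 36.3% were called higher and 35.9% lower in WT, 37.1% and 35.8% in RQ, 32% and 33.3% in S181E, and 32.9% and 32.9% in Y396E. The median change of the 9 genes was 0.17 in S181E, 0.14 in Y396E, -0.10 in WT and -0.11 in RQ, beside -0.03, -0.03, -0.01 and -0.01 for all genes.

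The cholesterol-export pair moved in opposite directions in all 4 populations. NPC1 went from 24.6, 24.5 and 20.4 CPM to 38.2, 39.6 and 40.1 in WT, a log2 change of 0.76 ± 0.16 (adjusted p = 0.000168). It rose by 0.95 ± 0.17 in RQ, 0.96 ± 0.17 in S181E and 0.71 ± 0.17 in Y396E. In Y396E arsenite replicate 3 had 17.8 CPM, within the control range, against 37.2 and 38.3 in the other replicates, and without it the rise was 1.01. NPC2 went to 85.2, 84.3 and 81.5 CPM in WT, well under its control libraries. It fell by 0.85 ± 0.08 in WT (adjusted p = 6.23e-10) and by 0.85 ± 0.08 in RQ, and by 0.37 ± 0.08 in S181E and 0.44 ± 0.08 in Y396E (adjusted p = 0.000306 and 3.63e-05). Its arsenite levels were closer between populations than its control levels, at 72.0 ± 4.50 CPM in S181E, 71.5 ± 5.33 in Y396E, 83.7 ± 1.94 in WT and 85.1 ± 4.67 in RQ (SD, n = 3).

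Of the proteases, CTSB fell in WT from 325.4, 359.7 and 301.9 CPM to the levels given above, a change of -0.56 ± 0.06 (adjusted p = 1.22e-08), and in RQ by 0.50 ± 0.06. In S181E and Y396E its changes of -0.16 ± 0.06 and -0.22 ± 0.06 had adjusted p of 0.0199 and 0.00252 but did not reach 1.2-fold. CTSL fell by 0.29 ± 0.06 in WT (adjusted p = 4.74e-05) and by 0.31 ± 0.06 in RQ, and had 0.14 ± 0.06 in S181E and 0.12 ± 0.06 in Y396E, neither called. The WT fall of CTSL lies next to the fold threshold and was 0.26 without WT control replicate 2 and 0.24 without WT arsenite replicate 3, both under it. With library totals the CTSL changes were -0.13 in WT and -0.15 in RQ, neither called. CTSD rose in S181E from 63.6, 54.9 and 56.9 to 73.1, 72.4 and 68.6 CPM, by 0.29 ± 0.09 (adjusted p = 0.00443), and by 0.24 without S181E control replicate 2, which ends the call. It had -0.13 ± 0.09, 0.06 ± 0.09 and 0.14 ± 0.09 in WT, RQ and Y396E.

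LIPA was not called in any population. Its log2 change was -0.07 ± 0.08 in WT and -0.06 ± 0.08 in RQ, with overlapping libraries, and 0.17 ± 0.08 in S181E (adjusted p = 0.0536) and 0.20 ± 0.08 in Y396E (adjusted p = 0.0273, under the fold threshold), where all 3 arsenite libraries lay above the control ones. HEXA, LAMP1 and LAMP2 were not called by edgeR in any population either, with changes between -0.19 and 0.26, LAMP1 having 0.21 ± 0.07 in S181E and 0.23 ± 0.07 in Y396E. Without Y396E arsenite replicate 3 the highest of these, LAMP2 in Y396E, was 0.06. DESeq2 called LAMP2 there (0.27, adjusted p = 0.0356), and library totals called LAMP1 (0.29) and LAMP2 (0.32).

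**Figure D3:**
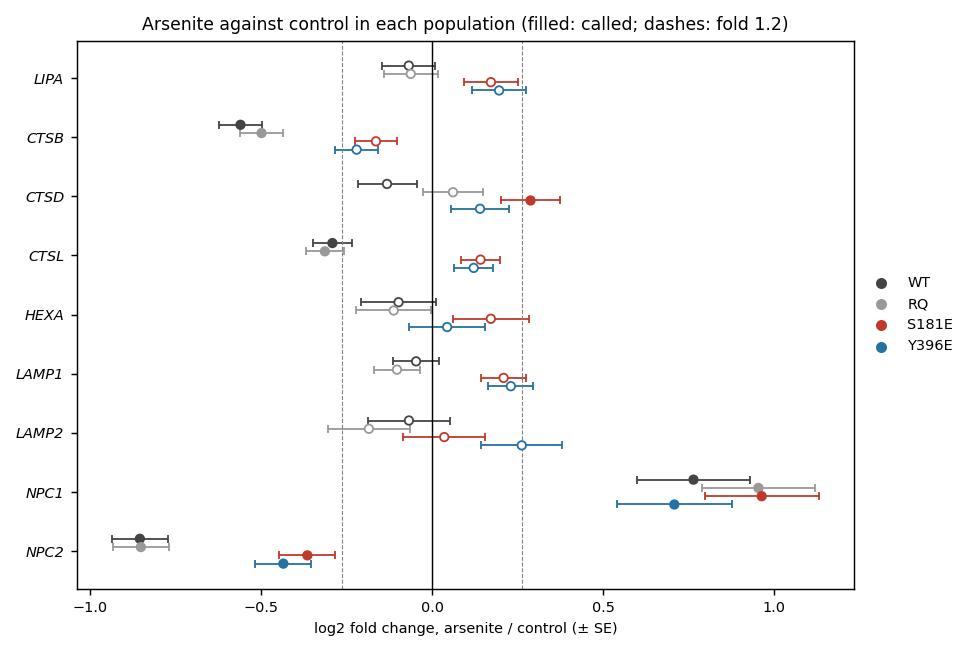
Log2 fold change of each gene in arsenite against control (x axis, ± SE from the edgeR fit) in the 4 populations, with called genes filled and the 1.2-fold threshold dashed. NPC1 lies at 0.71 to 0.96 in all 4, and for CTSB, CTSL and NPC2 the WT and RQ points lie left of those of S181E and Y396E.

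The difference between arsenite responses was tested as its own contrast. Against WT, 4 genes had a higher (less negative or more positive) response in S181E, CTSB, CTSD, CTSL and NPC2, where 6.98% of all genes had a higher and 9.41% a lower response. In Y396E the 4 were CTSB, CTSL, LAMP1 and NPC2, where 10.3% were higher and 11.1% lower. The largest difference was that of NPC2, 0.49 ± 0.12 in S181E (adjusted p = 0.00567) and 0.42 ± 0.11 in Y396E (adjusted p = 0.011). CTSL differed by 0.43 ± 0.08 and 0.41 ± 0.08 (adjusted p = 0.00106 and 0.00112), and CTSB by 0.40 ± 0.09 and 0.34 ± 0.09 (adjusted p = 0.0042 and 0.00829). For CTSL and NPC2 the control level differed from WT and the arsenite level was not called, and for CTSB it was the other way round.

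CTSD differed in S181E by 0.42 ± 0.12 (adjusted p = 0.0197), which was lost without WT control replicate 2 (0.35, adjusted p = 0.0712) or without S181E control replicate 2 (0.38, adjusted p = 0.0515). In Y396E it had 0.27 ± 0.12 (adjusted p = 0.101), and without Y396E arsenite replicate 3 it was called (0.35, adjusted p = 0.0153). LAMP1 differed in Y396E by 0.28 ± 0.09 (adjusted p = 0.0334), next to the fold threshold, and was lost without any of 8 single libraries, at 0.22 to 0.29. LIPA had 0.24 ± 0.11 in S181E (adjusted p = 0.132) and 0.26 ± 0.11 in Y396E (adjusted p = 0.0795). The Y396E value became 0.28 and was called without Y396E arsenite replicate 3 (adjusted p = 0.0441). NPC1 had 0.20 ± 0.23 and -0.06 ± 0.23, and without that library the Y396E value was 0.23. No member was called for the response of RQ by edgeR or DESeq2 and none had an unadjusted p under 0.05, with values from -0.12 to 0.19, where 0.22% of all genes were higher and 0% lower.

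Scaling moved these values together. With library totals in place of TMM factors, the median of all genes shifted to 0.18 in S181E and 0.14 in Y396E control cells against WT, to 0.15 in WT and 0.16 in RQ after arsenite, and to -0.14 and -0.12 for the responses of S181E and Y396E against WT. The higher share of the calls went from 50.4% to 83.6% in S181E control cells, from 50.5% to 81.1% in Y396E, from 50.3% to 61.6% in WT after arsenite and from 50.9% to 62% in RQ. It went from 38.7% to 55.9% in S181E arsenite cells against WT, from 42.6% to 13% and from 48.1% to 18.2% for the responses of S181E and Y396E, and for RQ from 70% to 38.3% in control and from 89.9% to 77.7% in arsenite. A change of scaling shifts all genes of a comparison by nearly the same amount. Values relative to the median of all genes must therefore nearly agree, and those of the 9 differed by at most 0.00758 between the scalings. This agreement was fixed in advance and is no check of the changes. LIPA in S181E control cells was at -0.41 relative to that median under either scaling. Taken without this reference, its value under library totals was -0.23 in S181E and -0.21 in Y396E, and that of CTSL -0.25 and -0.24, all under the fold threshold. CTSB, at 0.28 and 0.31, was called higher in control cells of S181E and Y396E under library totals, where its values relative to the median were 0.10 and 0.17. HEXA and NPC2 were called in control cells under both scalings.

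LIPA was next set against the other 8 genes. Per library, its log2 CPM minus their mean log2 CPM was -1.07 ± 0.04 in S181E control cells, -1.06 ± 0.10 in Y396E, -0.97 ± 0.04 in WT and -1.04 ± 0.03 in RQ (SD, n = 3). The offset includes the genes' lengths, so only differences between groups can be read. In arsenite it was -1.06 ± 0.03 in S181E, -0.96 ± 0.05 in Y396E, -0.87 ± 0.04 in WT and -0.97 ± 0.09 in RQ. The S181E libraries lay below those of WT in both conditions, and in Y396E control cells the range of -1.18 to -0.97 reached that of WT, -0.996 to -0.917. In control cells the RQ libraries, at -1.07 to -1.01, also lay below those of WT, and in arsenite they overlapped them. In control cells the LIPA change of -0.39 in S181E lay beside a median of -0.25 for the other 8, and that of -0.34 in Y396E beside -0.25. Its position among them was thus inside their range, which ran from -0.71 for NPC2 to 0.12 for CTSB in S181E.

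**Figure D4:**
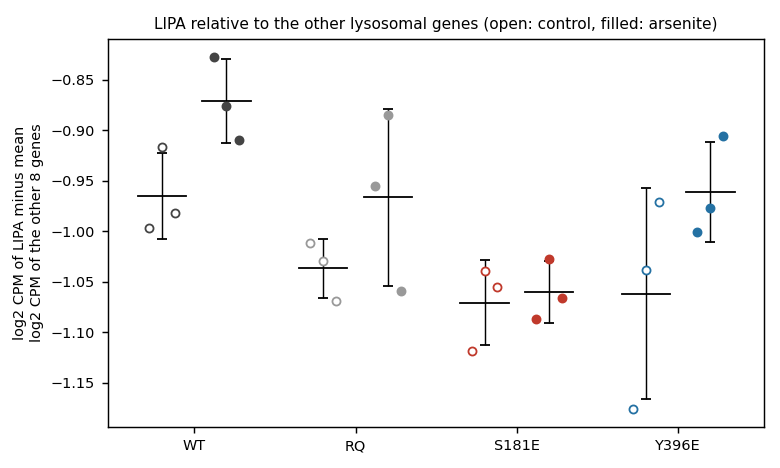
Log2 CPM of LIPA minus the mean log2 CPM of the other 8 lysosomal genes in each library (y axis), by population, with open points for control and filled points for arsenite and whiskers of 1 SD around the mean (n = 3). WT arsenite libraries lie at -0.91 to -0.83. S181E libraries lie below those of WT in both conditions, and RQ libraries do so in control.

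Over the 24 libraries the transcripts most like LIPA, by Pearson's r of log2 CPM among 9098 other tested genes, were EPHA1 (0.89), NEU1 (0.89), GALNS (0.88), ATP6AP1 (0.86) and SEMA4C (0.86). NEU1 encodes lysosomal sialidase and GALNS a lysosomal sulfatase, and ATP6AP1 is an accessory protein of the vacuolar proton pump, while EPHA1 and SEMA4C encode an ephrin receptor and a semaphorin. Within groups, after subtracting group means, these r were 0.68 to 0.80. Among the other 8 members HEXA (0.80), LAMP1 (0.75) and CTSL (0.73) ranked 22, 54 and 67, and CTSB had -0.32, although within groups CTSB had 0.70 and LAMP1 0.81. The points share libraries and scaling, so these values are descriptions without a test.

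The single parental libraries placed the 9 genes as follows. CTSL had 80.5 CPM in control and 74.2 in arsenite, above all 24 engineered libraries, which ran from 35.7 to 56.7. HEXA, at 15.6 CPM in control, lay in the range of the S181E and Y396E control libraries, and at 15.2 CPM in arsenite below all 12 engineered arsenite libraries, and NPC2 in the control library, at 105.3 CPM, lay between the mutant and the WT control libraries. LIPA had 38.5 and 44.6 CPM, NPC1 23.3 and 43.4, and CTSD 60.4 and 71.05. LAMP1, at 208.2 and 234.8 CPM, lay below every engineered library of the same condition. LAMP2 had 46.99 CPM in control, below all 24 engineered libraries, and 54.8 in arsenite. CTSB had 327.3 CPM in control. In arsenite CTSB, at 276.7 CPM, lay above the WT and RQ libraries and below those of S181E and Y396E. Without replicates these differences have no check.

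Other genes of the lysosomal pathway were followed as lists, by counts. These lists, too, were chosen with earlier results of these data known. Of 30 tested hydrolases other than the members, 14 were lower and 0 higher in S181E control cells than in WT (median -0.27), and 11 lower and 1 higher in Y396E (median -0.21), where 15.4% and 14.2% of all genes were called lower. Of 20 tested membrane proteins 12 were lower in S181E and 9 in Y396E with 0 higher (medians -0.30 and -0.26). In RQ 1 hydrolase was higher and 0 lower, and 0 membrane genes were called by edgeR or DESeq2, with 2 at an unadjusted p under 0.05. Only 1% of all genes were called higher and 0.429% lower in RQ. The hydrolases with the largest falls in S181E were ARSA, arylsulfatase A, at 6.10 ± 0.168 against 9.86 ± 0.742 CPM (-0.70 ± 0.11), and GAA, acid alpha-glucosidase, at 81.4 ± 4.51 against 129.9 ± 10.4 CPM (-0.67 ± 0.07). ARSA passed the filter of 10 CPM through arsenite libraries alone. In Y396E they had log2 changes of -0.617 and -0.601. Of the membrane genes, TPCN1, an endolysosomal cation channel, had -0.77 ± 0.07, and LAPTM4B, which lies on chromosome 8, -0.89 ± 0.06.

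The counts depended on single WT and mutant libraries. The S181E count of lower hydrolases was 22 without WT control replicate 3, and the Y396E count was 17 without it and 6 without Y396E control replicate 3. The S181E count of lower membrane genes was 7 without WT control replicate 2 or without S181E control replicate 3. Leaving out genes on chromosome 8 gave 14 and 11 hydrolases and 10 and 7 membrane genes. With library totals as the scaling, 7 and 4 hydrolases and 6 membrane genes in S181E were lower. Over all 9099 genes, library totals called 638 lower in S181E and 634 in Y396E, beside 1404 and 1289 in the main fit. Without WT control replicate 2, 1161 of 9053 genes were lower in S181E.

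The proton pump and the sorting machinery did not move as 1 group. Of 15 tested V-ATPase subunits, the pump that acidifies the lumen, 2 were higher and 4 lower in S181E control cells, where 15.7% of all genes were called higher and 15.4% lower. ATP6V1B2 (0.41 ± 0.07) and ATP6V1A (0.27 ± 0.07) were higher, and ATP6V1H (-0.63 ± 0.08) and ATP6V1C1 (-0.43 ± 0.05) lower, and ATP6V1B2, ATP6V1H and ATP6V1C1 lie on chromosome 8. Of 12 sorting genes 3 were higher, led by AP1M1 (0.55 ± 0.07), a subunit of the AP-1 clathrin adaptor, and GGA2 (0.46 ± 0.09), an adaptor for mannose 6-phosphate receptors, and 1 lower, GNPTG (-0.59 ± 0.09), a subunit of the transferase that makes the mannose 6-phosphate tag. None of 14 tested genes of the TFEB and mTORC1 list was called in S181E or Y396E control cells, with changes between -0.23 and 0.11, and DESeq2 called none either. An unadjusted p under 0.05 was found for 2 of them in S181E and 4 in Y396E.

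Of 11 tested sterol-handling genes, 1 was higher and 4 lower in S181E control cells and 1 higher and 3 lower in Y396E, where 15.7% and 14.5% of all genes were called higher and 15.4% and 14.2% lower. INSIG1, an endoplasmic reticulum protein that retains the sterol sensor complex, fell from 73.4 ± 7.97 to 33.7 ± 1.53 CPM in S181E (-1.12 ± 0.09) and by 1.16 in Y396E. SREBF2, the transcription factor that drives cholesterol synthesis and uptake genes, fell from 275.4 ± 10.9 to 130.7 ± 5.72 CPM (-1.08 ± 0.05) and by 1.13 in Y396E. PLIN2, a lipid droplet coat protein, was higher by 0.36 ± 0.08 and 0.33 ± 0.09. The adjusted p of each gene named from the lists in S181E control cells was at most 0.00296.

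**Figure D5:**
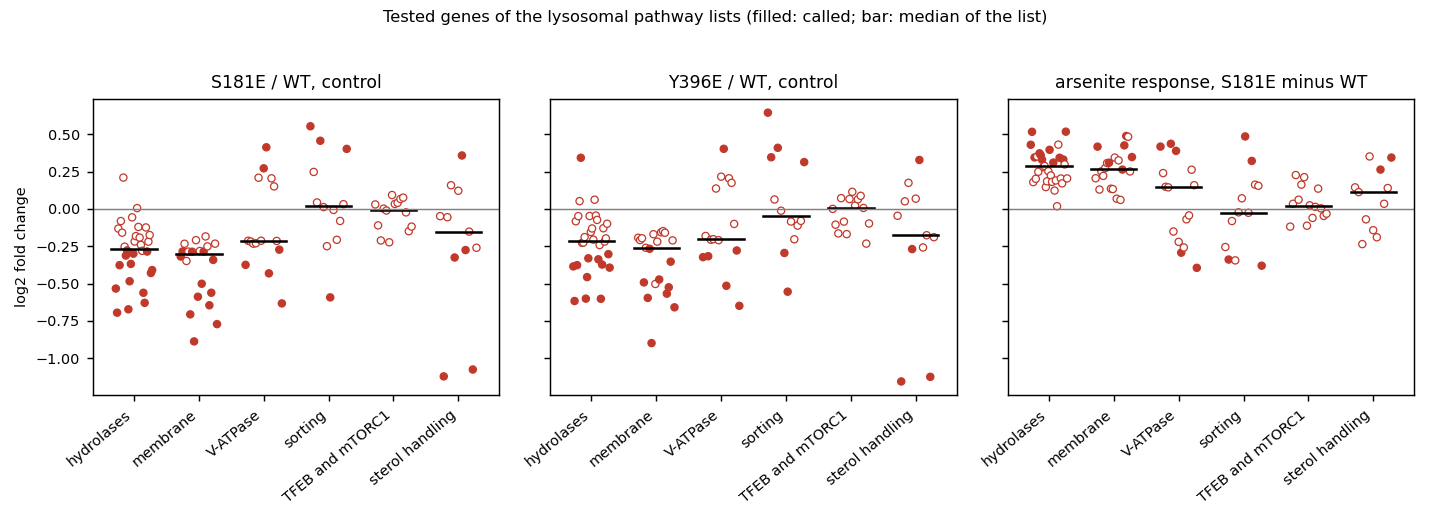
Log2 fold change (y axis) of every tested gene in the 6 lists of lysosomal pathway genes (x axis), for S181E and Y396E against WT in control cells and for the arsenite response of S181E minus that of WT, with called genes filled and a bar at each list's median. In control cells the hydrolase and membrane medians lie at -0.27 and -0.30 in S181E, and in the response panel they lie at 0.28 and 0.27.

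In WT cells arsenite had mixed effects on the lists. Of the 30 hydrolases 6 rose and 11 fell, of the 20 membrane genes 1 rose and 14 fell (median -0.47), and of the 15 V-ATPase subunits 5 rose and 6 fell, where 36.3% of all genes were called higher and 35.9% lower. The 6 hydrolases that rose include ARSA (0.44). Because ARSA passed the filter of 10 CPM through arsenite libraries alone, its rise is only a description. MANBA, beta-mannosidase, rose from 10.9 ± 1.44 to 28.3 ± 0.381 CPM (1.37 ± 0.11), and GUSB, beta-glucuronidase, by 0.61 ± 0.13. CTSZ, a cysteine protease, changed by -0.84 ± 0.07, and GM2A, the activator that presents GM2 ganglioside to the HEXA-containing enzyme, by -0.78 ± 0.09. SLC17A5, the lysosomal sialic acid transporter, fell from 66.8 ± 6.27 to 25.6 ± 1.41 CPM (-1.38 ± 0.08), and CD63, a tetraspanin of the lysosomal membrane, from 534.7 ± 70.4 to 286 ± 10.5 (-0.90 ± 0.07), while MFSD8 was the only membrane gene to rise (0.47 ± 0.11).

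Within the V-ATPase, ATP6V1H (1.05 ± 0.08) and ATP6V1A (0.92 ± 0.07), subunits of the cytosolic V1 sector, rose, whereas ATP6V0E1 (-1.04 ± 0.08) and ATP6V0B (-0.95 ± 0.08), of the membrane V0 sector, fell. Of the 12 sorting genes 7 rose and 4 fell, beside the same 36.3% and 35.9% of all genes, led by AP3B1 (1.97 ± 0.08), an AP-3 adaptor subunit, and VPS35 (1.24 ± 0.08), a retromer subunit, against GNPTAB (-1.07 ± 0.07) and M6PR (-0.84 ± 0.06), which encode another subunit of the tagging transferase and a mannose 6-phosphate receptor. Of the 14 genes of the TFEB and mTORC1 list 4 rose, led by TSC2 (1.33 ± 0.07) and MTOR (1.24 ± 0.09), and 7 fell, led by LAMTOR1 (-0.83 ± 0.05) and LAMTOR5 (-0.70 ± 0.11). Of the 11 sterol genes 5 rose and 3 fell. MYLIP, which targets the LDL receptor for degradation, had 2.08 and OSBP 1.13 ± 0.08. NCEH1, a cholesteryl ester hydrolase outside the lysosome, had -1.60 ± 0.09 and INSIG1 -0.90 ± 0.09. MYLIP, which is among the 5 counted as rising, had 4.34 CPM in WT control and 18.5 in WT arsenite libraries. It passed the filter of 10 CPM through arsenite libraries alone, so its change is given only as a description. The adjusted p of the other list genes named for arsenite in WT was at most 0.000417.

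In the difference of arsenite responses, 11 hydrolases and 6 membrane genes were higher in S181E than in WT and 0 lower, and in Y396E 5 and 4 were higher and 0 lower, with list medians of 0.28 and 0.27 in S181E and 0.26 and 0.19 in Y396E beside -0.03 and -0.02 for all genes. Of all genes 6.98% had a higher and 9.41% a lower response in S181E, and 10.3% and 11.1% in Y396E. The 11 hydrolases in S181E include ARSA (0.52), which passed the filter through arsenite libraries alone. In RQ none of the 30 hydrolases and 20 membrane genes was called by edgeR or DESeq2, and none had an unadjusted p under 0.05. Of all genes only 0.22% had a higher and 0% a lower response in RQ. The S181E hydrolase count was 2 without WT control replicate 2 and 1 with library totals. Over all genes, 312 of 9053 and 256 of 9099 had a higher response in these fits, beside 635 of 9099 in the main fit. Without single libraries the S181E hydrolase count ranged from 2 to 15. The Y396E count ranged from 3 to 14, reaching 14 when WT control replicate 3 was left out and 11 when Y396E arsenite replicate 3 was, without which the Y396E count of higher membrane genes was 7.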

How the data were processed

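Poly(A) RNA from clarified lysates was sequenced in 26 HCT116 libraries, which were grouped by their labels. The authors aligned single reads to hg38 with STAR 2.7.11b, and the files they deposited hold raw counts for each gene. Per the file headers these were made by featureCounts (Subread 2.0.6), by strand, over GENCODE exons. Symbols were taken from GENCODE by Ensembl identifier, version removed, and 62541 of 63086 matched. Unmatched identifiers held at most 0.036% of a library's counts. The study's immunoprecipitation libraries were not analysed here.

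Protein-coding genes above 10 CPM in at least 12 of the 24 engineered libraries (9099 genes) were tested with edgeR 4.0.16 in R 4.3.3 (TMM factors 0.865 to 1.086, glmQLFit and glmQLFTest, 1 mean for each of 8 groups, 16 residual degrees of freedom, common biological coefficient of variation 0.0682). P-values were Benjamini-Hochberg adjusted within each of 15 comparisons. SE was taken from the F statistic (size of change over its root), and intervals are 95%. Log2 CPM used a prior count of 2. Total counts were 22508145 to 50834401, and the lowest member count in a library was 406. The chi-square per gene between replicates was 2.96 to 70.3, above counting noise. Dishes were plated independently.

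The members, the lists and the tests were chosen with earlier results of these data known. From each list, the 2 top risers and 2 top fallers among called genes whose libraries did not overlap were named for arsenite in WT and for S181E in control, with the 5 genes most like LIPA. Same-numbered libraries deviated together (every pair's r above 0.1) only for RQ against WT, in control (0.291 to 0.525) and in arsenite (0.147 to 0.15). This pairing comes from the data and not from the labels. Alternatives were DESeq2 1.42.0, other scalings, filters, gene types, samples, fold thresholds, the replicate block and leaving out each library. Fits of only the groups compared with the block, and all alternatives for the lists, were added after the data had been seen.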

Additional observations from a re-analysis of the deposited data

Results flagged for a closer look

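The arsenite responses that differed from that of WT by the test of the difference itself were those of CTSB, CTSD, CTSL and NPC2 in S181E and of CTSB, CTSL, LAMP1 and NPC2 in Y396E. In S181E the differences on the log2 scale were 0.40 ± 0.09 (SE) for CTSB, 0.42 ± 0.12 for CTSD, 0.43 ± 0.08 for CTSL and 0.49 ± 0.12 for NPC2. In Y396E they were 0.34 ± 0.09 for CTSB, 0.41 ± 0.08 for CTSL, 0.28 ± 0.09 for LAMP1 and 0.42 ± 0.11 for NPC2. The comparisons share the WT libraries, so the sets of both mutants are not independent. CTSB, CTSL and NPC2 kept their call in both mutants in each fit that left out 1 library. CTSB in Y396E lost it with library totals (0.23, adjusted p = 0.0208, under the fold threshold) and in a fit of only the groups compared (0.35, adjusted p = 0.0526).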

How the results depend on the processing

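The 34 called changes of the 9 genes kept their sign in all 1156 refits, kept their call in 1119 and lost it in 37. Of the 34 settings refitted, 24 leave out 1 library, often from outside the groups compared, where the estimate hardly moves. These totals therefore say little about how far a call rests on the libraries compared. HEXA in S181E arsenite and LAMP1 in the response of Y396E lost theirs in the fits given above. Among the 101 changes that were not called, the sign changed in 118 of 3434 refits, always without a call, and 45 refits gained a call. With library totals the number of called genes was 4 for arsenite in Y396E and 2 for the response of Y396E against WT, where a fit of only the groups compared also gave 2. Without a fold threshold arsenite called 6 genes in S181E and 6 in Y396E. A fold change above 2 left 0 in each comparison that had calls, since the largest change of the 9 was 0.96 on the log2 scale. Leaving out 1 library gave 1 to 2 called genes for S181E against WT in arsenite and 2 to 5 for Y396E. The replicate block gave 4 called genes in S181E and 4 in Y396E control cells, and 0 for RQ in control and in arsenite, where the numbers paired the samples, and changed no count of called members. With only the groups compared and the block, Y396E against WT in arsenite had 1 called gene, CTSB. LIPA changed sign, never called, for arsenite in WT (0.10 with library totals, and -0.16 to 0.015 when single libraries were left out), for arsenite in RQ (0.11 with library totals, and -0.15 to 0.011) and for RQ against WT in control (-0.15 to 0.024, with 0.016 without RQ control replicate 3). For the response of RQ it was -0.0061 with DESeq2, -0.0059 with RLE size factors, -0.0093 with TMM factors from before the filter and with no filter, -0.0028 with only the groups compared, -0.0038 with the block added, and -0.083 to 0.092 over the fits that left out a library, of which WT control replicate 2, RQ control replicate 3, RQ arsenite replicate 2 and WT arsenite replicate 3 gave -0.083, -0.075, -0.030 and -0.021. Against the 3 cathepsins in place of all 8 genes, LIPA was at -1.57 in S181E, -1.59 in Y396E, -1.36 in WT and -1.44 in RQ control cells, and at -1.49, -1.41, -1.10 and -1.25 in arsenite. The cause of these shifts was not tested. Depth limits HEXA most, with 406 counts in its lowest library.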
